A study of Caenorhabditis elegans with 6 samples.

Results

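The cyp-35 genes of Caenorhabditis elegans form a small subfamily of cytochrome P450 genes, divided by name into groups A, B, C and D. They were taken as every gene whose public name starts with cyp-35, which gave 10 of the 20422 genes in the authors' table: cyp-35A1 to cyp-35A5, cyp-35B1 to cyp-35B3, cyp-35C1 and cyp-35D1. The name alone decides membership, but the subfamily was picked for description with its fold changes in these data already known. Its values in the comparison of genotypes are therefore a description, and the adjusted p-values printed are the authors' own. RNA came from whole sterile adults of 2 genotypes, with 3 samples each. The daf-2; mes-1 worms (strain SS1224) carried daf-2(e1370), a mutation that lowers the function of the insulin/IGF-1 receptor, together with mes-1(bn84ts). The mes-1 worms (strain SS0415) carried mes-1(bn84ts) alone, so both genotypes carried the temperature-sensitive mes-1 allele that leaves adults without a germline. Embryos of both genotypes were laid at 24°C, kept at 15°C from day 1 to prevent dauer formation and returned to 24°C on day 5, and 100 adults without visible embryos were picked per sample on day 6.

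Cytochrome P450 enzymes are heme proteins that insert an oxygen atom into lipophilic substrates, using electrons passed on by a reductase from NADPH. In C. elegans, cyp-35 genes are expressed mainly in the intestine. Foreign compounds induce several of them, and loss of some cyp-35A genes has been tied to changes in fat storage. The insulin/IGF-1 receptor DAF-2 restrains the FOXO transcription factor DAF-16, and detoxification genes are among those known to differ in daf-2 mutants. Whole worms were sampled, so fewer cells of a type and less RNA per cell cannot be told apart.

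Values for single samples were not analysed here, and the depth of each library is unknown. The authors' table gives each gene a mean normalized count over all 6 samples, a DESeq2 log2 fold change (daf-2; mes-1 divided by mes-1) with its Benjamini-Hochberg adjusted p, and 1 RPKM value per genotype (reads scaled to gene length and library size). Since the labels name no separate cultures, the p-values reflect the spread among the samples as such, and that spread may be technical. A gene is called here when the deposited adjusted p is under 0.05. Fold changes stop at 5 in absolute log2 value and adjusted p-values at 1e-20 in the table. The median log2 fold change of the 9820 genes with an adjusted p was -0.03.

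Most cyp-35 genes were lower in daf-2; mes-1 adults, and none of the B genes was called. By DESeq2 in the authors' deposited table, 7 of the 10 genes were called lower: all 5 A genes, cyp-35C1 and cyp-35D1. Over all 9820 genes with an adjusted p, 6.35% were called lower and 10.3% were called in either direction. None of the 10 was called higher by DESeq2, where 3.92% of all genes were, although cyp-35B1 had a positive fold change with an unadjusted p under 0.05. The remaining genes, cyp-35B2 and cyp-35B3, had almost no reads and no adjusted p. The median log2 fold change was -2.26 over the 8 members with an adjusted p and -2.05 over all 10. Because the subfamily was picked with these results known, the share called is a description and nothing is read from it.

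The subfamily as a whole carried less RNA per length in the double mutant. The authors' RPKM values of the 10 genes summed to 100.2 in daf-2; mes-1 and 418 in mes-1, a 4.17-fold difference in the sums. Most of both sums came from cyp-35A2 and cyp-35C1, which together made up 70.6% in daf-2; mes-1 and 81.0% in mes-1. The A genes alone summed to 49.7 RPKM in daf-2; mes-1 and 251 in mes-1. The B genes summed to 25.8 RPKM in daf-2; mes-1 and 16.1 in mes-1, nearly all of it from cyp-35B1, which was not called. These sums are of the authors' values and have no error of their own.

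**Figure D1:**
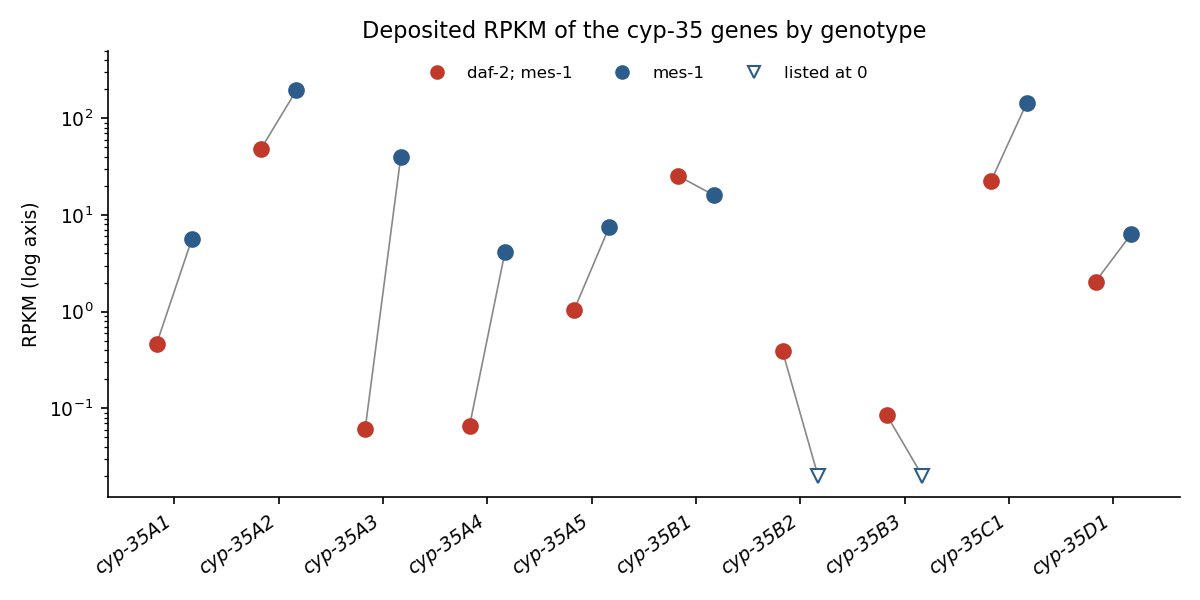
Authors' RPKM of each cyp-35 gene (log axis) in daf-2; mes-1 (red, left) and mes-1 (blue, right), 1 value per genotype with no error available; open triangles mark genes listed at 0. All A genes, C1 and D1 lie lower in daf-2; mes-1, cyp-35A3 spans the widest gap (0.0618 against 39.4), and cyp-35B1 lies higher (25.4 against 16.1).

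The order of the genes by level differed between the genotypes. In daf-2; mes-1 the order of RPKM was cyp-35A2, cyp-35B1, cyp-35C1, cyp-35D1 and cyp-35A5, followed by genes under 0.5 RPKM. In mes-1 it was cyp-35A2, cyp-35C1, cyp-35A3, cyp-35B1, cyp-35A5, cyp-35D1, cyp-35A1 and cyp-35A4, with cyp-35B2 and cyp-35B3 listed at 0. The share of cyp-35B1 in the summed RPKM was 25.3% in daf-2; mes-1 and 3.84% in mes-1. That of cyp-35A3 was 0.0616% in daf-2; mes-1 and 9.44% in mes-1. By contrast cyp-35A2 held a like share of the sum in both, 48.0% in daf-2; mes-1 and 46.6% in mes-1. Which neighbours in these orders differ beyond their spread cannot be said from 1 value per genotype.

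The 2 abundant members that fell are the best measured. For cyp-35A2, an A gene that RNAi studies in worms have linked to fat storage, the RPKM was 48.1 in daf-2; mes-1 and 195 in mes-1. The authors' deposited table gives it a mean normalized count of 492 and a log2 fold change of -1.94 (DESeq2, adjusted p = 1.6e-12). The standard error implied by that p is 0.25, which gives a 95% interval from -2.43 to -1.44 for the log2 fold change. For cyp-35C1, the sole C gene and one of those known to respond to foreign compounds, the RPKM was 22.7 in daf-2; mes-1 and 144 in mes-1. Its log2 fold change in the authors' deposited table is -2.54 (DESeq2, adjusted p = 1.34e-18), with an implied standard error of 0.27 and an interval from -3.07 to -2.01. Both genes were thus several times lower in the double mutant, 3.82-fold for cyp-35A2 and 5.83-fold for cyp-35C1, and their intervals overlap. Implied standard errors assume a Wald test and are upper limits, and the intervals are not adjusted for the number of genes.

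cyp-35A3 was at the edge of detection in daf-2; mes-1. The RPKM of this A gene, another that is inducible by foreign compounds, was 0.0618 in daf-2; mes-1 and 39.4 in mes-1. No gene in the table with an adjusted p had a lower log2 fold change in the authors' deposited table, where it stands at the limit of -5 with an adjusted p at the limit of 1e-20 (DESeq2). Its mean normalized count of 77.7 corresponds to 466 normalized reads over the 6 samples. Divided in proportion to RPKM, 0.729 of these fell to daf-2; mes-1 and 465 to mes-1. The counts come from DESeq2 and the RPKM from another program, Cuffdiff2, so this split is an estimate and not a count of reads. By it the level in the double mutant rests on about 1 read. A ratio of the RPKM values without a pseudocount would hang on so low a level, and none is given. With a pseudocount of 1 the log2 ratio is -5.25.

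The other A genes were scarce in both genotypes and lower in the double mutant. For cyp-35A5 the RPKM was 1.03 in daf-2; mes-1 and 7.56 in mes-1, and the authors' deposited table gives a log2 fold change of -2.16 (DESeq2, adjusted p = 0.000381). cyp-35A1 had 0.462 RPKM in daf-2; mes-1 and 5.68 in mes-1, and its log2 fold change in the authors' deposited table is -2.37 (DESeq2, adjusted p = 0.000548). cyp-35A4 had 0.0658 RPKM in daf-2; mes-1 and 4.16 in mes-1, and the authors' deposited table lists -2.66 (DESeq2, adjusted p = 0.000382). All 3 fall in the same low range, and their implied standard errors of 0.50, 0.56 and 0.62 in that order are larger than those of cyp-35A2 and cyp-35C1. The 95% intervals of the log2 fold changes of cyp-35A1, cyp-35A2, cyp-35A4 and cyp-35A5 overlap one another.

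For the scarce genes the deposited fold change lies nearer 0 than the RPKM values do. For cyp-35A1 the log2 ratio of the RPKM values, with no pseudocount, is -3.62 against the deposited -2.37, and for cyp-35A5 it is -2.88 against -2.16. For the abundant cyp-35A2 and cyp-35C1 the ratios, -2.02 and -2.67, are close to the deposited values of -1.94 and -2.54. By the same estimate the double-mutant value of cyp-35A4, like that of cyp-35A3, rests on about 1 read. Of its 47.6 summed normalized reads, 0.740 went to daf-2; mes-1 and 46.9 to mes-1 when divided by RPKM. No such ratio is given for it. The lowest mean normalized count at which the table gives an adjusted p is 5.75. The same division puts the daf-2; mes-1 means of cyp-35A1, cyp-35A3, cyp-35A4 and cyp-35A5 at 1.59, 0.243, 0.247 and 4.12. By this estimate these 4 genes have an adjusted p through their level in mes-1, and the count of members called lower takes in that choice.

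cyp-35D1 was lower by the smallest margin among the called members. It encodes an enzyme known in C. elegans to oxidize the anthelmintic thiabendazole. Its RPKM was 2.05 in daf-2; mes-1 and 6.30 in mes-1, and the authors' deposited table gives a log2 fold change of -1.36 with an adjusted p of 0.0465 (DESeq2), just inside the threshold. The implied standard error is 0.48 and the 95% interval runs from -2.31 to -0.42. At a threshold of 0.01 it was not called and the other 6 members were, against 4.8% of all genes with an adjusted p. At 0.1 the count was 7, against 7.19%, and with a log2 fold change of at least 1 in size it was again 7, against 5.05%.

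None of the B genes was called lower. For cyp-35B1, which has been listed among genes downstream of DAF-16, the RPKM was 25.4 in daf-2; mes-1 and 16.1 in mes-1. The authors' deposited table gives a log2 fold change of 0.64 (DESeq2, adjusted p = 0.197), with an implied standard error of 0.30 and an interval from 0.06 to 1.22. It was not called, and its interval lies above those of all 6 called members for which an interval could be computed. The genes cyp-35B2 and cyp-35B3 had RPKM values of 0.390 and 0.0846 in daf-2; mes-1 and were listed at 0 in mes-1. Their summed normalized reads over 6 samples were 5.68 and 0.936, which is too few to compare the genotypes.

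**Figure D2:**
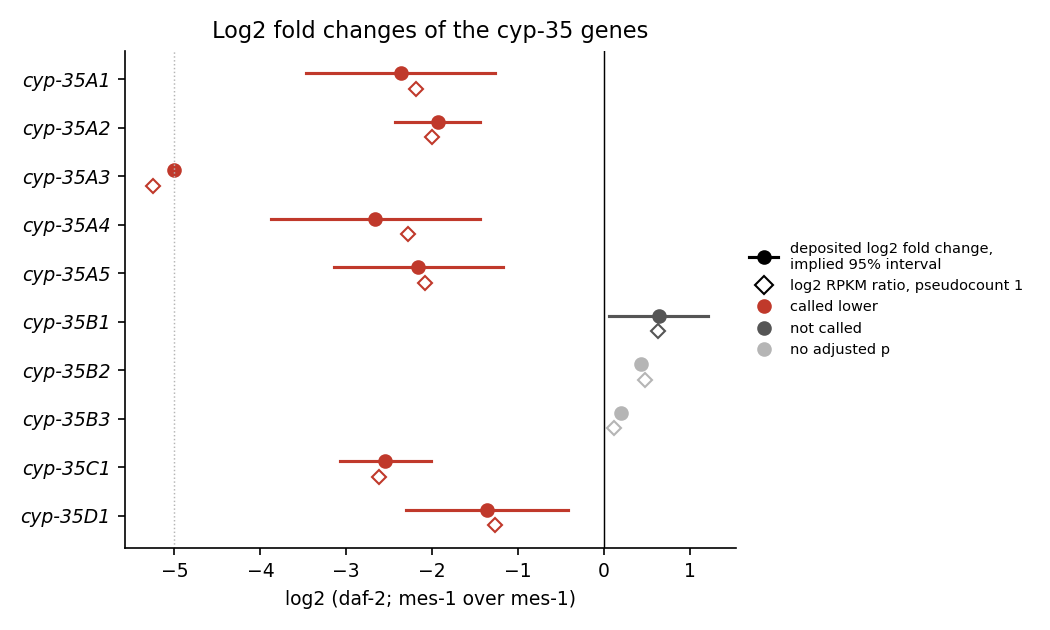
Log2 fold change of each cyp-35 gene (daf-2; mes-1 over mes-1): filled circles are the authors' DESeq2 values with the implied 95% interval, which cyp-35A3, at the limit of the adjusted p, and genes with no adjusted p lack, and open diamonds are log2 RPKM ratios with a pseudocount of 1. The 7 called genes lie between -5 and -1.36, and the B genes lie to the right of 0; the dotted line marks the limit of the deposited fold changes.

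By rank of log2 fold change from the lowest among the 9820 genes, cyp-35A3 stood at 1, cyp-35A4 at 69, cyp-35C1 at 83, cyp-35A1 at 106, cyp-35A5 at 131, cyp-35A2 at 169 and cyp-35D1 at 365. cyp-35B1 stood at 8999.

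**Figure D3:**
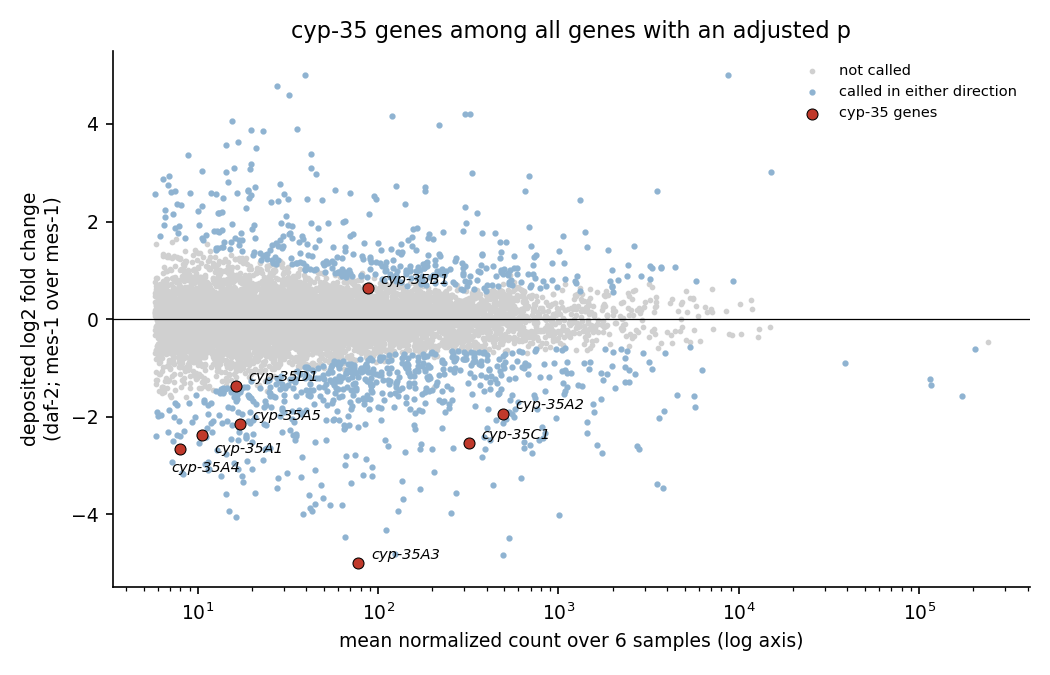
Deposited log2 fold change (daf-2; mes-1 over mes-1) against mean normalized count over 6 samples (log axis) for the 9820 genes with an adjusted p; grey points were not called, blue points were called in either direction and labelled red points are the 8 cyp-35 genes. Those called lower span means from 7.93 to 492, with cyp-35A3 at the lower limit of -5.

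All 10 genes lie on chromosome V, at 5 places. Positions are given as in the authors' table, whose genome build was not given in the sources used here. cyp-35A5, cyp-35B1, cyp-35B2 and cyp-35B3 stand side by side on the forward strand from 3936359 to 3947029. cyp-35A3 (4022604 to 4024458) and cyp-35A4 (4031612 to 4033372) follow on the same strand with K09D9.1 between them, and cyp-35A1 and cyp-35A2 are adjacent on the reverse strand from 7359979 to 7364186. cyp-35C1 (13896643 to 13898474, reverse strand) and cyp-35D1 (16069218 to 16071239, forward strand) stand alone. On chromosome V as a whole 9.24% of 1905 genes with an adjusted p were called lower. No member overlaps another gene of the table, which bears on these libraries because their kit does not mark strand.

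Of the genes beside or between the members, those with an adjusted p were not called lower, where 6.35% of all genes were. cyp-35A5, called lower at -2.16, ends 630 bases before cyp-35B1, which has 0.64 in the authors' deposited table. On the far side of the same run cyp-34A4, a P450 gene of the related cyp-34A group, has 0.67 (DESeq2, adjusted p = 0.273) in the authors' deposited table. K09D9.1, between cyp-35A3 and cyp-35A4, has -0.60 (DESeq2, adjusted p = 0.611) there, and C49G7.7, after cyp-35A4, has 0.51 (adjusted p = 0.524). C03G6.5, next to cyp-35A2, was higher by DESeq2 in the authors' deposited table, with a log2 fold change of 0.91 (adjusted p = 0.00615). sptl-3, a serine palmitoyltransferase gene that ends 239 bases from cyp-35C1, has 0.32 (DESeq2, adjusted p = 0.544) in the authors' deposited table. On the other side of cyp-35C1, oac-3 has -1.73 in the authors' deposited table, with no adjusted p and with RPKM of 0.210 in daf-2; mes-1 and 1.83 in mes-1. Of the 11 flanking or intervening genes 6 had an adjusted p. DESeq2 called none of them lower and 1 higher. At an unadjusted p under 0.05, 1 was lower and 2 were higher.

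The neighbour that was lower at an unadjusted p under 0.05 was nhr-176, the gene of a nuclear receptor known in C. elegans to be required for induction of cyp-35D1 by thiabendazole. It is the next gene after cyp-35D1 on the same strand. Its RPKM was 4.58 in daf-2; mes-1 and 10.8 in mes-1. The authors' deposited table gives it a log2 fold change of -1.05 (DESeq2, adjusted p = 0.187), so it was not called.

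Exon structure also differs between the groups of the subfamily. Lengths were taken from Ensembl's annotation of WBcel235, in which all 10 genes were found by gene ID. Each gene has an exon 2 of 145 bases and an exon 3 of 133 bases. The A genes have 7 exons and share exons 4, 5 and 6 of 303, 111 and 487 bases. cyp-35C1 also has 7 exons, with exons 4 and 5 of 121 and 293 bases, whose sum of 414 equals that of the A genes, and exon 6 of 487. The B genes have 5 exons, and exon 4 alone, of 910 bases, lies between exon 3 and the last. cyp-35D1 has 6 exons, with exons 4 and 5 of 423 and 487 bases, which also sum to 910. The middle part is therefore 901 bases in the A genes and cyp-35C1 and 910 bases in the B genes and cyp-35D1. Of the tested genes with a middle part of 910 bases, cyp-35D1 was called lower (DESeq2, adjusted p = 0.0465) and cyp-35B1 was not. At the stricter threshold of 0.01 cyp-35D1 was not called either, while all A genes and cyp-35C1 still were. The interval of the log2 fold change of cyp-35D1, from -2.31 to -0.42, lies wholly below that of cyp-35B1, from 0.06 to 1.22. It overlaps the intervals of cyp-35C1 and of all A genes except cyp-35A3, which has none. Whether the calls go with the length of the middle part was not tested. How the authors' counting treated reads that match more than 1 of these related genes was not given in the sources used here, so values of single A genes are uncertain to that extent.

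**Figure D4:**
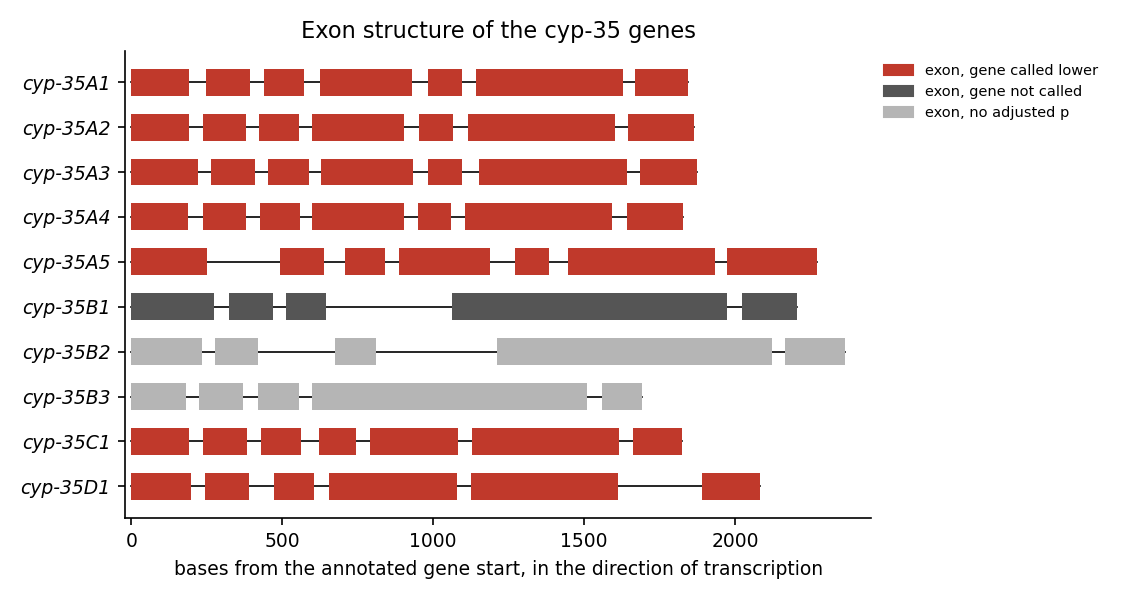
Exons (boxes) and introns (lines) of the cyp-35 genes to scale, in bases from the annotated start in the direction of transcription; red marks genes called lower, dark grey cyp-35B1 (not called) and light grey genes with no adjusted p. The B genes have 5 exons, with exon 4 of 910 bases, the A genes and cyp-35C1 have 7, and cyp-35D1 has 6.

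Other cytochrome P450 genes changed in both directions. Of the 42 P450 genes outside cyp-35 with an adjusted p, 9 were called lower and 5 higher in the authors' deposited table. Over all genes with an adjusted p, 6.35% were called lower and 3.92% higher. The median log2 fold change of the 42 P450 genes was -0.00185. The largest changes among them were those of cyp-14A3 at -4.82 (adjusted p = 1e-20, the limit) and cyp-13B1 at 3.85 (adjusted p = 1.82e-11) by DESeq2, per the authors' deposited table. Falls were also called in other subfamilies: in 3 of 5 tested cyp-25A genes, whose log2 fold changes run from -1.83 to -0.19 in the authors' deposited table, and in 2 of 4 tested cyp-14A genes. The single tested genes of cyp-32B, cyp-37A and cyp-37B were called lower too, with -3.21, -2.65 and -1.64 in the authors' deposited table. Of the cyp-34A group, cyp-34A4 adjoins the B genes. None of the 5 tested cyp-34A genes was called by DESeq2, where 10.3% of all genes were called in either direction. With so few genes, nothing is read from that count. Of the 5, 2 had an unadjusted p under 0.05 and a positive fold change. The median of the 5 was 0.39. The cyp-35 genes made up 13.01% of the summed RPKM of all P450 genes in daf-2; mes-1 and 27.46% in mes-1. Whether the subfamily differs from other P450 genes was not tested.

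**Figure D5:**
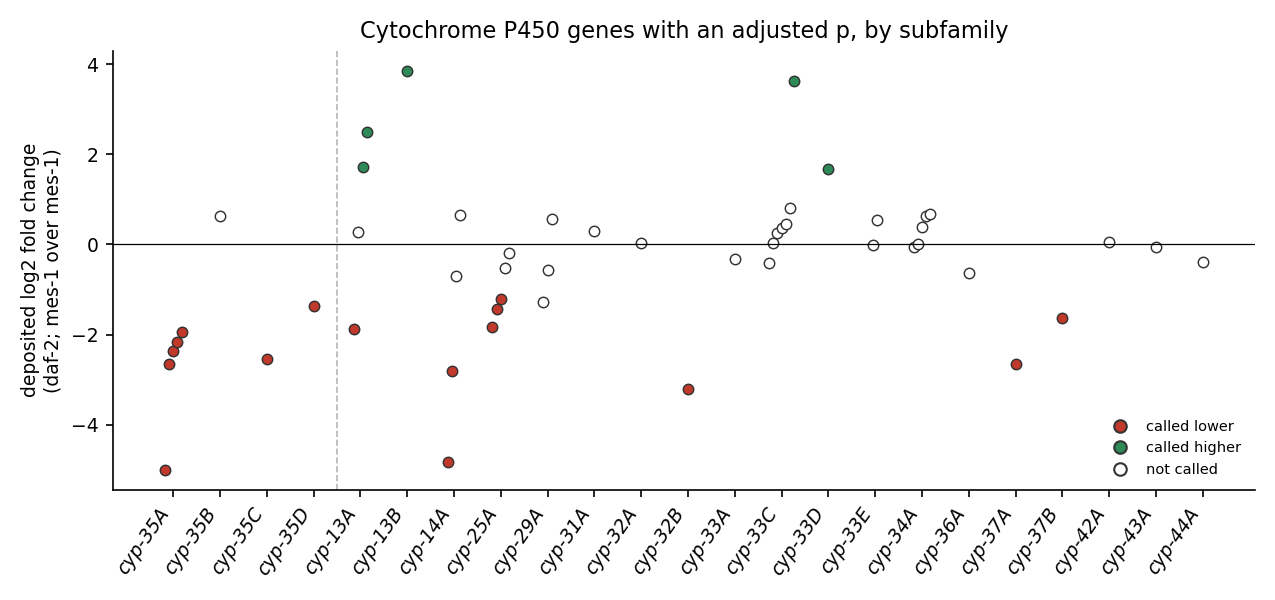
Deposited log2 fold change (daf-2; mes-1 over mes-1) of each cytochrome P450 gene with an adjusted p, by subfamily, with cyp-35 to the left of the dashed line; red points were called lower, green higher and open points not called. The A, C and D points of cyp-35 are all red, while the other 42 genes hold 9 red, 5 green and 28 open points.

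Partners of P450 enzymes were lower in part. The reductase that supplies P450 enzymes with electrons is encoded by emb-8. The authors' deposited table gives emb-8 a log2 fold change of -0.71 (DESeq2, adjusted p = 0.0384), with RPKM of 50.2 in daf-2; mes-1 and 84.1 in mes-1. The other 3 genes of the electron transfer list were not called, and they differed in sign. By DESeq2, cytb-5.1 stood at a log2 value of -0.64, cytb-5.2 at 0.31 and vem-1 at 0.35. Of 7 heme-responsive hrg genes, several of which move the cofactor of P450 enzymes, 4 had an adjusted p. DESeq2 called 3 of these lower, where 6.35% of all genes with an adjusted p were. Both lists are short, and nothing is read from these counts. The heme transporter genes hrg-1 and hrg-4 stood at log2 values of -1.52 (adjusted p = 8.21e-06) and -2.001 (adjusted p = 0.000207) by DESeq2, per the authors' deposited table. For hrg-7, a heme-responsive gene of the aspartic protease type, the RPKM was 158 in daf-2; mes-1 and 716 in mes-1, and the authors' deposited table gives -2.10 (DESeq2, adjusted p = 3.6e-17).

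None of 12 tested regulators of stress, xenobiotic or lipid genes was called by DESeq2, where 10.3% of all genes were called in either direction. With so few genes, nothing is read from that count. Of these regulators 1, nhr-176, had an unadjusted p under 0.05. In the authors' deposited table daf-16 has a log2 fold change of 0.20 (DESeq2, adjusted p = 0.82), the mediator subunit gene mdt-15 has 0.21 (adjusted p = 0.755) and the nuclear receptor gene nhr-8 has -0.33 (adjusted p = 0.664). The median of these regulators was 0.06. RNA levels do not measure the activity of such factors.

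Many intestine markers were also lower in daf-2; mes-1. Of 12 such markers, 9 were called lower in the authors' deposited table, where 6.35% of all genes with an adjusted p were. The count was 8 at an adjusted p under 0.01 and 7 with a log2 fold change of at least 1 in size. The list is short and was chosen with earlier results known, so nothing is read from the count. The RPKM of the 12 markers summed to 13013 in daf-2; mes-1 and 21682 in mes-1, with no marker at 0 in either genotype. Most of both sums was the yolk gene vit-2, with 11928 RPKM in daf-2; mes-1 and 18534 in mes-1. Its log2 fold change of -0.62 lies just inside the threshold (DESeq2, adjusted p = 0.0493). The intestinal intermediate filament gene ifb-2 and the intestinal actin gene act-5 have log2 fold changes of -3.49 (adjusted p = 1e-20, the limit) and -1.53 (adjusted p = 6.33e-13) by DESeq2, per the authors' deposited table. The 3 not called were the GATA factor genes elt-2 and elt-7 and the gut esterase gene ges-1, at 0.06, -0.79 and 0.37 in the authors' deposited table. The median of the markers was -1.29, against -2.26 for the cyp-35 genes with an adjusted p, while cyp-35B1 and ges-1 had positive values. The part of the intestine markers in the decrease of the cyp-35 genes was not tested.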

How the data were processed

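Total RNA of whole worms was depleted of ribosomal RNA and sequenced on an Illumina instrument, per the labels' protocols. The submitters' processing notes name TopHat2 and the authors' use of DESeq2 but no version or setting, and the file headers add Cuffdiff2. The deposited table holds the authors' mean normalized count as a signal over all 6 samples, a log2 fold change and a Benjamini-Hochberg adjusted p-value from DESeq2, and RPKM per genotype from Cuffdiff2, per the file headers. No value for a single sample was analysed, so no new test, mean ± SD or depth could be had, and calls are the authors' own.

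From these values, unadjusted p-values were found by inverting the adjustment over 9820 genes. Each is the largest p that gives the adjusted value. Implied standard errors came from dividing the log2 fold change by the normal quantile, which assumes a Wald test, and are upper limits. The inversion was tested on simulated data with Wald p-values, so that assumption was not tested. Genes at the limit of the adjusted p got none. Normalized reads per genotype were not counted but estimated, by dividing the DESeq2 counts in proportion to the Cuffdiff2 RPKM. Python 3.11.15, pandas 2.3.3 and scipy 1.17.1 were used.

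All 10 members are named; called genes of the electron transfer, heme and regulator lists, the largest change each way in larger families, and neighbours follow a fixed rule, and other genes were named after their values were seen. Members and lists were chosen with earlier results of these data known. Other thresholds, RPKM pseudocounts and filters were tried.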

Additional observations from a re-analysis of the deposited data

How the results depend on the processing

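The count of 7 cyp-35 genes called lower was 6 at an adjusted p under 0.01. It was 7 at 0.1 and with a log2 fold change of at least 1 in size. Leaving out members that overlap another gene could not change the count, since no member does. The median log2 fold change of the tested members, -2.26, was -2.13, -2.71 and -1.01 for log2 RPKM ratios with pseudocounts of 1, 0.1 and 5. It was -2.05 over all members, -2.24 over the 2 with a mean of at least 100 and -2.24 centred on the median of all genes. The log2 RPKM ratio, whose sign no pseudocount can change, and the centred fold change had the sign of the deposited value in all 10 members. Centring could not have changed a sign, since the median of -0.03 is smaller in size than every member's fold change. The 1 called electron transfer gene, emb-8, became 0 at 0.01, 2 at 0.1 and 0 with a log2 change of at least 1. At 0.01 the 8 ugt genes called higher became 5 and the 9 called lower became 6. The 1 pgp gene called lower became 0 and the 2 mrp genes called lower became 1. With a log2 change of at least 1, 1 mrp gene and 7 ugt genes called lower were left. At 0.01 the other P450 genes called lower went from 9 to 8 and those called higher from 5 to 4. The gst genes called higher went from 5 to 4 and the intestine markers called lower from 9 to 8. No paired analysis was possible because only values per genotype were analysed, and for the same reason no replicate could be left out. The alternative that leaves out members with nearly identical proteins was not run, since no protein sequences were used here. The depth of the libraries is unknown. By the estimate from RPKM, the levels of cyp-35A3 and cyp-35A4 in daf-2; mes-1 rest on about 1 read each.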

Other observations

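Among the families of enzymes and pumps that act after P450 enzymes in detoxification, only the UDP-glucuronosyltransferase genes had calls in both directions. Over all genes with an adjusted p, 6.35% were called lower and 3.92% higher. Of 50 tested UDP-glucuronosyltransferase (ugt) genes, which attach sugars to foreign compounds, 9 were called lower and 8 higher in the authors' deposited table, led by ugt-53 at -4.32 (adjusted p = 1e-20, the limit) and ugt-1 at 2.12 (adjusted p = 5.22e-06, DESeq2). Of 23 tested glutathione S-transferase (gst) genes, 5 were called higher and 0 lower in the authors' deposited table, led by gst-3 at 2.77 (adjusted p = 4.91e-09, DESeq2). The RPKM of all 44 gst genes summed to 2206 in daf-2; mes-1 and 1490.0 in mes-1. A few abundant genes weigh heavily in these sums, such as gst-10, with 429 RPKM in daf-2; mes-1 and 219 in mes-1. It was not called (DESeq2, adjusted p = 0.0596). The median log2 fold change of the 23 tested gst genes was 0.16, and 18 of them were not called. Among export pumps, 1 of 14 P-glycoprotein (pgp) genes was called lower in the authors' deposited table, pgp-5 at -1.27 (adjusted p = 0.0287, DESeq2). That count is near the share over all genes, and nothing is read from it. Of 8 multidrug resistance protein (mrp) genes 2 were called lower, mrp-6 at -1.11 (adjusted p = 0.0146) and mrp-5, which is known in C. elegans to export heme from the intestine, at -0.87 (adjusted p = 0.000175), by DESeq2 per the authors' deposited table. Whether any of these families differs from the cyp-35 genes was not tested.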
